A study of Mus musculus with 28 samples.

Results

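The response of the liver to ellagic acid (EA) on top of ethanol was set side by side in wild-type mice and in mice deficient in the constitutive androstane receptor (CAR), probe set by probe set. For each probe set the difference between the ethanol plus EA diet and the ethanol (EtOH) diet was taken in each genotype, and the CAR-deficient difference was subtracted from the wild-type one. This difference of differences is called the interaction, and a positive value means that EA on ethanol moved the probe set further up, or less far down, in wild-type mice. The members are the 5735 probe sets, of 45011 measured in both genotypes, whose standard deviation (SD) over the arrays exceeded 0.01 in wild-type and in CAR-deficient mice. The filter left 6632 probe sets in wild-type and 9300 in CAR-deficient mice before the overlap was taken. It did not use the diet labels, but the SD includes differences between diets, so probe sets that differ by diet pass it more easily. The probe sets nearest to the limit were Trdmt1, just inside with a smaller SD of 0.0101, and Hdgf, just outside with 0.00995. The members cover 3670 genes that a probe set names alone.

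All mice were C3H/HeN animals, aged 5 weeks at the start of 1 week of acclimation. They then received Lieber's liquid diet, first for 1 week ad libitum and then for 4 weeks at 12 g per day. The 4 groups compared were wild-type on EtOH (4 arrays, numbered 1, 3, 4 and 5 in the labels), wild-type on EtOH plus EA (4 arrays), CAR-deficient on EtOH (3 arrays) and CAR-deficient on EtOH plus EA (3 arrays). EA was given at about 50 mg per kg per day and each array held the liver RNA of 1 mouse. The CAR-deficient mice came from a strain that is deficient in the receptor gene Nr1i3 and carried this on every diet. Wild-type and CAR-deficient arrays on a control diet without ethanol and on EtOH plus trans-resveratrol (RSV) brought the total to 28 and entered the fit of the spread.

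The values are log2 probe set summaries made by Distribution Free Weighting (DFW), a method that weights and rescales each probe set by how its probes vary, and the authors ran it apart on the 16 wild-type and the 12 CAR-deficient arrays. Levels were therefore not compared between genotypes, a difference is in DFW units and not a calibrated fold change, and an interaction subtracts differences that stand on separate scales. The median residual SD within a diet was 0.115 in wild-type and 0.198 in CAR-deficient mice over the members. The wild-type over CAR-deficient ratio of these SDs had a median of 0.572 and quartiles of 0.389 and 0.822, so the same biological change can have an unequal size in the 2 sets of arrays. A positive rescaling cannot turn the sign of a difference within a genotype.

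Some labels and arrays were checked first. The Nr1i3 probe set was not low in CAR-deficient mice, with 8.56, 9.33 and 9.01 on EtOH and 8.82, 8.98 and 9.49 on EtOH plus EA, against 9.18, 9.68, 9.14 and 8.96 and then 9.77, 9.75, 10.10 and 9.92 in wild-type mice. The scales are apart and the deleted part of the gene is not given in the sources used here, so this probe set does not check the genotype. The labels call the mice female, whereas the probe sets of Xist, the X-inactivation transcript, lay at the 3.84 to 39.3 percentile of all probe sets and 1 of those of the Y-linked Eif2s3y at 92.1 in wild-type and 91.7 in CAR-deficient mice. The other probe sets of the Y-linked genes Eif2s3y, Kdm5d and Uty lay between 3.78 and 74.4. The Xist values and the high Eif2s3y value go against the label, and the other Y-linked probe sets were not high. Cyp4a12a, a male-predominant gene, had control diet means of 11.28 in wild-type and 11.37 in CAR-deficient mice. The upper quartiles of the mean level over all probe sets were 7.49 and 7.9. The Cyp4a12a level goes against the label too, and sex is not used below. The array CAR-deficient EtOH 1 stood apart, with a mean Pearson r of 0.917 with the other CAR-deficient arrays, where the other 11 had means of 0.945 to 0.966. Where leaving it out changed a call, turned the sign or moved a printed interaction or list median by over 1.5 times, the value without it is given.

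CAR is a nuclear receptor that hepatocytes use to switch on enzymes and transporters for foreign compounds, with Cyp2b10 as its classic target and the Cyp2c family among the others. Many liver genes of mice are sex-biased, and the male pattern depends on the pulses of growth hormone that activate the transcription factor STAT5B. Cytosolic heat shock proteins are induced through heat shock factor 1, while chaperones of the endoplasmic reticulum (ER) are induced by the unfolded protein response. Ellagic acid is a polyphenol of fruits and nuts that gut bacteria convert to urolithins.

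Promoters of 4 members described below are shown as examples that hold a motif. Slc22a26 and C8a are from the genes whose CAR-deficient arrays separated by diet, Fkbp4 from the heat shock proteins and Per1 from the clock repressors. As examples with a match they do not show how common a motif is in its set. Each run gives the 250 bases before a RefSeq start of the gene, 5′ to 3′ on the coding strand, in GRCm38.p6. Where a gene has several starts, the first with a match of the motif was taken. Slc22a26 lies on the minus strand at chr19:7802668-7802917, C8a on the minus strand at chr4:104876399-104876648, Fkbp4 on the minus strand at chr6:128438657-128438906 and Per1 on the plus strand at chr11:69098699-69098948. Capitals mark the STAT5 motif TTCNNNGAA in the first pair, the heat shock element GAANNTTC in Fkbp4 and the E-box CACGTG in Per1, each of which reads the same on both strands.
Slc22a26: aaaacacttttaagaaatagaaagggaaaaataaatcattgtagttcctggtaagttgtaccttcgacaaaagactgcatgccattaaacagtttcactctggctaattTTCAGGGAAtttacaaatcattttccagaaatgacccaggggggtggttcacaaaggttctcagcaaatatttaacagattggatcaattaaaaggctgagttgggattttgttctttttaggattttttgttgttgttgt
C8a: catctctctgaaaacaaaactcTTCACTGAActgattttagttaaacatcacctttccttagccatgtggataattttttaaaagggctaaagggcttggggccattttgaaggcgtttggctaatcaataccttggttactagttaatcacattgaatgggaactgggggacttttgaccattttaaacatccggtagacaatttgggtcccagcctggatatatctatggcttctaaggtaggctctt
Fkbp4: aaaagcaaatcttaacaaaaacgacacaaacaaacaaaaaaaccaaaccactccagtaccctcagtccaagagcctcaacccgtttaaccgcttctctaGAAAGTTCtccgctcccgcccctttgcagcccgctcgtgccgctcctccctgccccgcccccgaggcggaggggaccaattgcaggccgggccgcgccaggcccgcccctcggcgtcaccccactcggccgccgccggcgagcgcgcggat
Per1: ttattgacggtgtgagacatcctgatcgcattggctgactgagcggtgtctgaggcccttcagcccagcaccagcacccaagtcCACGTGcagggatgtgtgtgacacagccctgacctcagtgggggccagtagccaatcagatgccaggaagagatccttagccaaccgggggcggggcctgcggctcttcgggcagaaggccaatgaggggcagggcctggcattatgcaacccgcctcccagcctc

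The STAT5 motif began at base -141 in Slc22a26 and -228 in C8a, the heat shock element at -151 in Fkbp4 and the E-box at -166 in Per1. Of 32851 RefSeq promoters of this length, 7.02% hold the STAT5 motif, 6.69% the heat shock element and 6.02% the E-box. The lists were counted by gene, with a match in any promoter of the gene. The heat shock element was found in 9 of 19 heat shock genes (47.4%) and the E-box in 4 of 11 clock repressor genes (36.4%). The STAT5 motif was found in 2 of 13 male-biased genes (15.4%). In the same windows 2 of 11 clock repressor genes (18.2%) held the STAT5 motif and 4 of 19 heat shock genes (21.1%) the E-box. The STAT5 motif was in 0 of 6 female-biased genes. Of 8 genes of called probe sets, 2 held the STAT5 motif (25%), 0 the heat shock element and 2 the E-box (25%). The genes whose CAR-deficient arrays separated by diet were not counted as a set. A gene with several starts has more windows for a match, so these shares are not directly comparable with those over promoters. These are matches of letters and not measured sites.

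The interaction passed the threshold in few probe sets. Of the 5735 members, 10 (0.174%) had a limma-adjusted p under 0.05 over all 45011 probe sets, against 71 (0.158%) of all probe sets, so the members' share was near the background. They were 6 with a positive interaction (0.105%), where the share over all probe sets was 0.0889%, and 4 with a negative one (0.0697%), where it was 0.0689%. At an unadjusted p under 0.05 there were 459 members (8%), against 8.46% of all probe sets. The 95% confidence interval of an interaction had a median half-width of 0.358, with 3 and 4 arrays per diet. The median absolute difference was 0.132 in wild-type and 0.159 in CAR-deficient mice. These intervals use 1 spread for both genotypes and are too narrow where the CAR-deficient arrays spread more. For several probe sets described below the standard error of the interaction was under that of the CAR-deficient difference fitted alone. Among these were Ptbp1 1458284_at, Slc22a26, Cyp2c29, Txn2 1455640_a_at, Tmem243, Cyp4a12a and C8a. With the spread estimated apart in each genotype, 1 of the 10 calls remained, Shld1 with a limma-adjusted p of 0.0354. With each genotype scaled to unit variance limma called 0 of the members, and 222 had an unadjusted p under 0.05. Without the array CAR-deficient EtOH 2 the calls went from 6 and 4 to 24 positive and 20 negative, and without CAR-deficient EtOH 1 they were 4 and 4. Over all 45011 probe sets these fits called 359 and 57, beside 71 with all arrays, so the rise was not particular to the members. All liver RNA was measured in bulk, so fewer cells of a type and less RNA per cell cannot be told apart.

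EA on ethanol gave many calls in wild-type and none in CAR-deficient mice, while the directions were largely shared. In wild-type mice EA on ethanol raised 266 members (4.64%) and lowered 333 (5.81%), against 1.1% and 1.26% of all probe sets. In either direction this was 10.4% of the members and 2.37% of all probe sets. The SD filter favours probe sets that differ by diet, so a higher share of calls among the members is no result about them. In CAR-deficient mice limma called 0, with a smallest adjusted p of 0.0932 over the members, although 741 members (12.9%) had an unadjusted p under 0.05, against 8.5% of all probe sets. The unadjusted count in wild-type mice was 2221 members (38.7%), against 15% of all probe sets. Of the 599 members called in wild-type mice, 544 (90.8%) had a CAR-deficient difference of the same sign, where 72.8% of all members did. Those called higher in wild-type mice had a median difference of 0.408 there and 0.211 in CAR-deficient mice, and 238 of 266 were above 0 in the latter. Those called lower had medians of -0.315 and -0.226, and 306 of 333 were below 0. Only 2 of the 599, Shld1 and Zfp275, also passed the interaction, and 106 (17.7%) had an unadjusted interaction p under 0.05. For the others the difference between genotypes itself did not pass. The wild-type count depended on the arrays of the other diets, since a fit of the EtOH and EA arrays alone called 33 members higher and 42 lower. Leaving out 1 wild-type array at a time gave 109 to 309 higher and 103 to 363 lower.

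**Figure D1:**
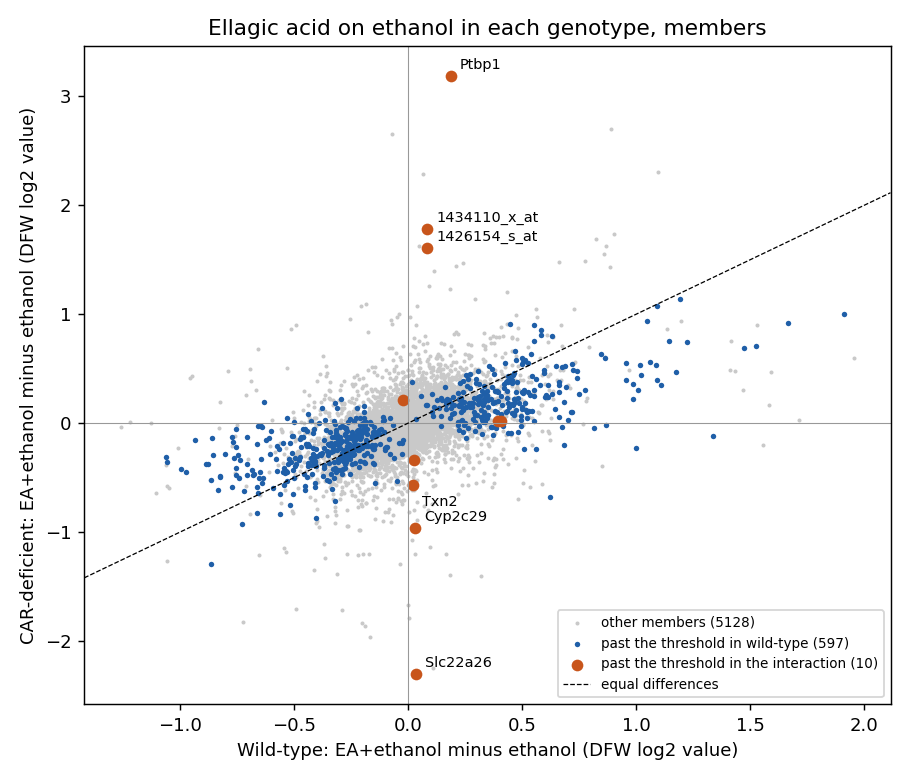
Difference between EtOH plus EA and EtOH in wild-type (x axis) and CAR-deficient mice (y axis), both in DFW log2 units, for the 5735 members; the 10 members past the threshold of the interaction are large orange points and the dashed line marks equal differences. Most members called in wild-type mice lie in the quadrants of equal sign, and 8 of the 10 interaction calls have the larger difference in CAR-deficient mice.

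Over the members the differences of the 2 genotypes had a Pearson r of 0.499 and a Spearman rho of 0.563, a description across probe sets that share arrays. The EA and EtOH arrays of both genotypes did not overlap in the same direction for 312 members and in opposite directions for 3. In wild-type mice alone they stood apart upward for 9.94% and downward for 15.1% of the members, against 4.37% and 5.07% of all probe sets. The SD filter favours such probe sets here too. Of the 459 members with an unadjusted interaction p under 0.05, 254 had differences of opposite sign and 205 of the same sign. The larger size was in CAR-deficient mice in 280 of them (61%), against 56.4% of all members. The larger spread and scale of the CAR-deficient arrays moves with this share, and its part was not tested.

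The interaction calls fell into a large group that moved in CAR-deficient mice and a pair that moved in wild-type mice. Ptbp1 encodes a splicing regulator, and its probe set 1458284_at gave the largest value. The 3 CAR-deficient EtOH arrays read 6.67, 7.60 and 7.48 and the EA arrays 10.09, 10.68 and 10.53, near the 10.55 to 10.79 of the control diet. The wild-type arrays read 9.44, 9.62, 9.85 and 9.84 on EtOH and 10.17, 9.60, 9.89 and 9.83 with EA. The CAR-deficient groups were thus more than 2 units apart without overlap, while the wild-type groups overlapped. The interaction was -3.0 (95% confidence interval -3.86 to -2.14, limma-adjusted p 0.00398), made of a wild-type difference of 0.19 and a CAR-deficient one of 3.19. Its standard error was 0.413, beside 0.452 for the CAR-deficient difference fitted alone, so this interval is too narrow. With the spread apart the limma-adjusted p was 0.142. Another member probe set of Ptbp1, 1424874_a_at, ran the other way, from 9.83 to 10.00 on EtOH down to 9.45 to 9.48 with EA in CAR-deficient mice, with an interaction of 0.46 (limma-adjusted p 0.201). The probe sets of Ptbp1 thus disagreed in direction, and 1458284_at is given by its number for that reason. Without the array that stood apart 1458284_at kept its call, with -2.71 (limma-adjusted p 0.00647).

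Probe sets 1434110_x_at and 1426154_s_at, which the annotation used here does not name, had the same shape as 1458284_at. In CAR-deficient mice 1434110_x_at read 11.70, 12.50 and 12.51 on EtOH and 13.72, 14.13 and 14.20 with EA, and 1426154_s_at read 12.03, 12.94 and 13.04 and then 14.09, 14.41 and 14.35. In wild-type mice all 8 arrays lay between 13.89 and 14.13 for the former and between 13.80 and 13.95 for the latter. Each EA array exceeded each EtOH array for both probe sets in CAR-deficient mice and, by a narrow margin, for 1426154_s_at in wild-type mice. The interactions were -1.70 (-2.20 to -1.19, limma-adjusted p 0.00444) and -1.52 (-2.01 to -1.04, limma-adjusted p 0.00676). Without the array that stood apart they were -1.43 and -1.21, both with a limma-adjusted p under the threshold (0.00359 and 0.00132).

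Slc22a26 belongs to the SLC22 family of organic ion transporters. It read 10.37, 9.45 and 10.57 in CAR-deficient mice on EtOH and 8.18, 7.60 and 7.70 with EA, where the control diet gave 6.68, 6.54 and 6.94. In wild-type mice it stayed between 6.52 and 6.95 on both diets. The EA arrays of CAR-deficient mice thus lay between those of control and EtOH without overlap, and in wild-type mice EtOH itself differed from control by 0.19 (limma-adjusted p 0.29). The interaction was 2.34 (1.40 to 3.28, limma-adjusted p 0.0383). The second member probe set of Slc22a26, 1425752_at, gave 2.35 with a limma-adjusted p of 0.101. Without the array that stood apart the value was 2.22 (limma-adjusted p 0.079), so the size held and the call did not.

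Cyp2c29, a cytochrome P450 and a target of CAR, also passed. CAR-deficient mice read 12.87, 12.78 and 13.02 on EtOH and 12.17, 11.70 and 11.92 with EA, both far above the 10.24, 9.68 and 10.14 of the control diet. Wild-type mice read 13.60, 13.48, 13.61 and 13.66 on EtOH and 13.59, 13.47, 13.73 and 13.69 with EA. EA thus came with a separation of the groups in CAR-deficient mice that covered part of the ethanol rise, and with full overlap in wild-type mice. Ethanol against control, which shares the EtOH arrays, was 2.88 in CAR-deficient (limma-adjusted p 0.0028) and 1.11 in wild-type mice (limma-adjusted p 1.7e-05). The interaction was 0.99 (0.61 to 1.37, limma-adjusted p 0.0334) and was 1.00 without the array that stood apart (limma-adjusted p 0.0504).

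The remaining calls with a CAR-deficient difference were smaller. Txn2 encodes mitochondrial thioredoxin, and its probe set 1455640_a_at read 10.28, 10.19 and 10.12 on EtOH and 9.66, 9.59 and 9.63 with EA in CAR-deficient mice, against 8.61 to 8.76 over all wild-type arrays of both diets. Its interaction was 0.59 (0.40 to 0.77, limma-adjusted p 0.00676), whereas the other member probe set of Txn2, 1452782_a_at, gave 0.07. Rcbtb1, a protein with RCC1 and BTB domains, had an interaction of 0.36 (0.22 to 0.51, limma-adjusted p 0.0347), with 9.60, 9.71 and 9.43 on EtOH and 9.26, 9.26 and 9.21 with EA in CAR-deficient mice. Tmem243, a transmembrane protein, had -0.23 (-0.32 to -0.14, limma-adjusted p 0.0355), with 11.24, 11.30 and 11.21 and then 11.57, 11.41 and 11.40. Without the array that stood apart these interactions were 0.54, 0.35 and -0.22, and Txn2 kept its call (limma-adjusted p 0.0196, 0.0637 and 0.0686). None of the 3 passed with the spread apart (limma-adjusted p 0.144, 0.232 and 0.336). In each of the 3 the CAR-deficient groups did not overlap, as was the case for 6.91% of all probe sets upward and 6.56% downward, and for 6.94% and 10.4% of the members.

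**Figure D2:**
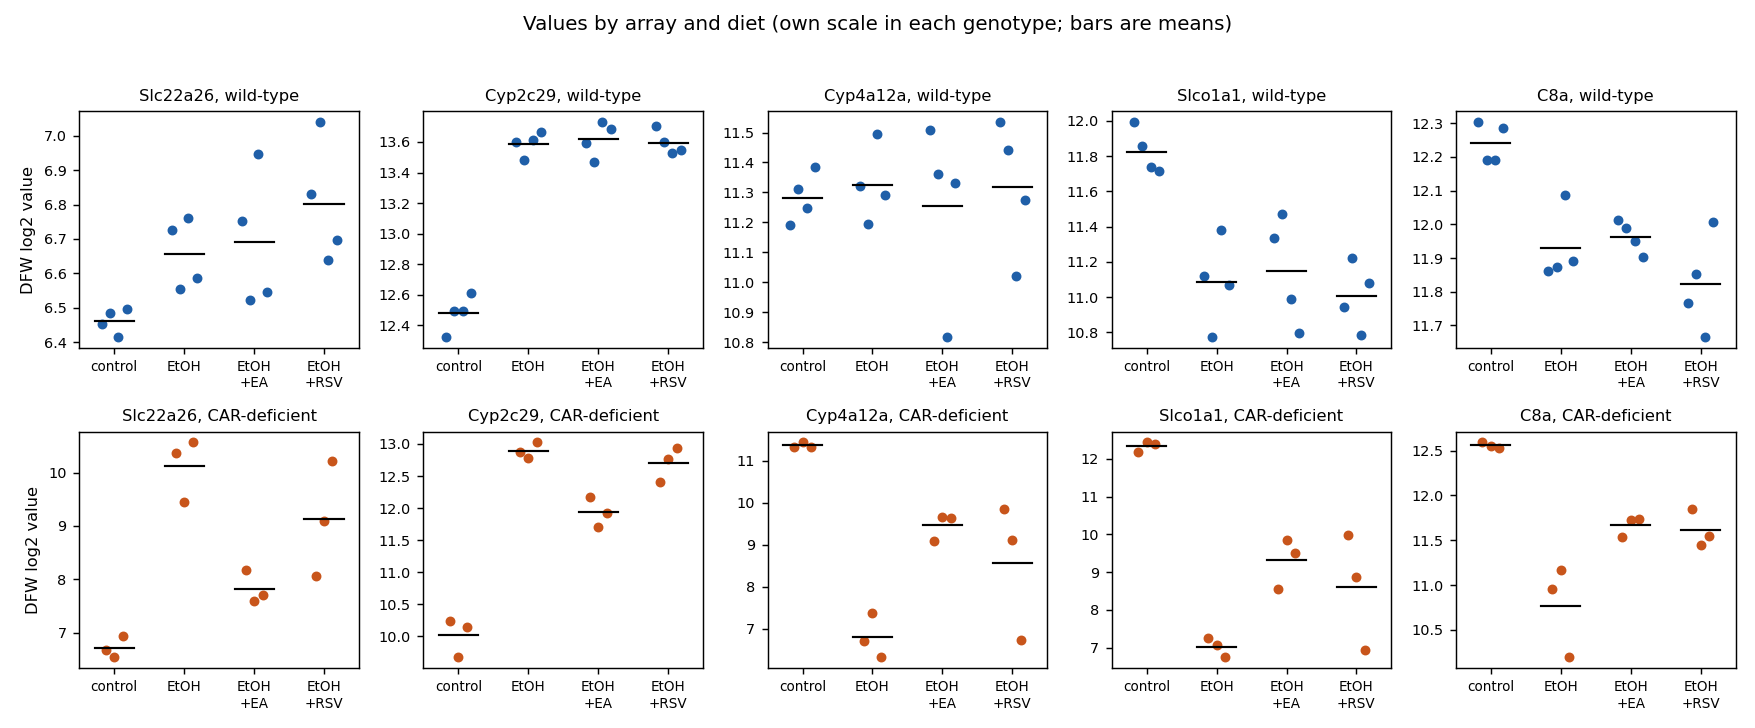
DFW log2 values of each array by diet for Slc22a26, Cyp2c29, Cyp4a12a, Slco1a1 and C8a, wild-type in the top row and CAR-deficient in the bottom row, each panel with its own axis; bars are group means. In CAR-deficient mice the EA arrays lie between the EtOH and the control arrays for all 5 genes, for Slc22a26 at 7.60 to 8.18 between 9.45 to 10.57 and 6.54 to 6.94.

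The calls that rested on wild-type mice were Shld1 and Zfp275. Shld1, a subunit of the shieldin complex that protects DNA ends during break repair, read 7.16, 7.21, 7.12 and 7.29 on EtOH and 7.58, 7.55, 7.60 and 7.64 with EA at probe set 1437617_x_at in wild-type mice. CAR-deficient mice read 7.71, 7.71 and 7.69 and then 7.70, 7.74 and 7.73. The wild-type groups were separate and the CAR-deficient groups overlapped, with an interaction of 0.37 (0.24 to 0.50, limma-adjusted p 0.0194). The SD over all arrays was 0.214 in wild-type but 0.0188 in CAR-deficient mice, just above the limit for a member, so DFW left this probe set almost flat there. The second Shld1 probe set, 1452888_at, with SDs of 0.173 and 0.167, had differences of 0.32 and 0.25 and an interaction of 0.06 (limma-adjusted p 0.95). The Shld1 call, the only one to hold with the spread apart, was thus not shared by its other probe set.

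Zfp275, a zinc finger protein, read 7.72, 7.77, 7.78 and 7.75 on EtOH and 8.08, 8.21, 8.11 and 8.25 with EA in wild-type mice. CAR-deficient mice read 8.46, 8.36 and 8.26 and then 8.37, 8.35 and 8.41. Each EA array lay above each EtOH array in wild-type mice, and the CAR-deficient groups overlapped. The interaction was 0.39 (0.23 to 0.55, limma-adjusted p 0.0442), and 0.34 with a limma-adjusted p of 0.109 without the array that stood apart.

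Since fewer than 5 genes passed with a negative interaction, the genes of smallest p in that direction are given as values. They were Ptbp1, Tmem243, Rbm14, Cyp4a12a and C8a, and the last 3 did not pass. Rbm14 encodes an RNA-binding protein of nuclear paraspeckles. It read 8.59, 8.55, 8.57 and 8.69 on EtOH and 7.73, 7.79, 7.85 and 7.80 with EA in wild-type mice, and 9.05, 9.01 and 8.89 and then 8.55, 8.94 and 8.61 in CAR-deficient mice. The wild-type fall of 0.80 passed (limma-adjusted p 3.1e-05), and the CAR-deficient difference was -0.28 with overlapping groups. The interaction was -0.52 (limma-adjusted p 0.0765), and a second member probe set, 1456566_x_at, gave -0.53 (limma-adjusted p 0.197). Without CAR-deficient EtOH 2 the Rbm14 interaction was -0.54 and passed (limma-adjusted p 0.0463).

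**Figure D3:**
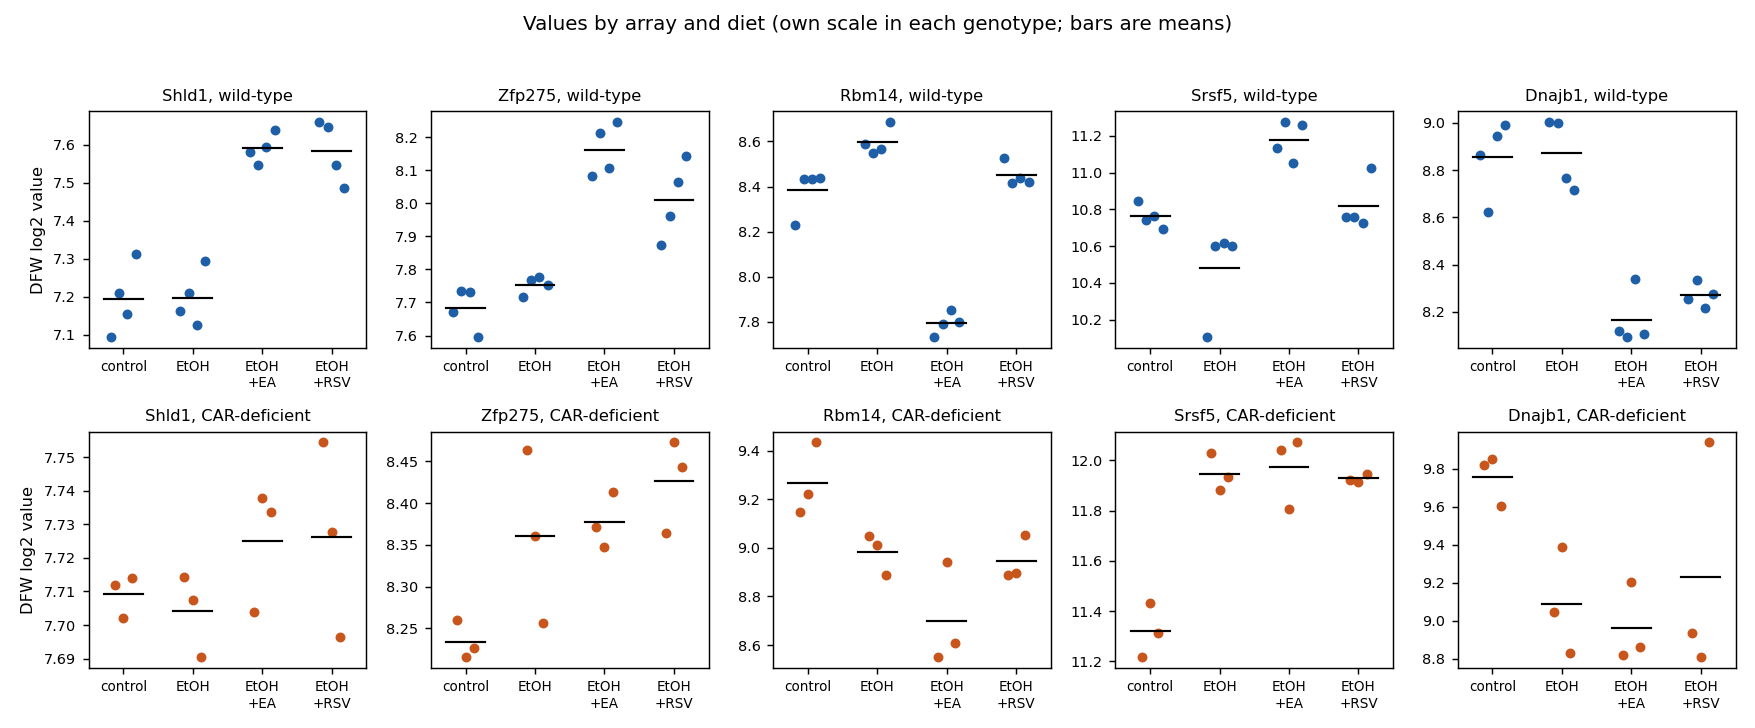
DFW log2 values of each array by diet for Shld1, Zfp275, Rbm14, Srsf5 and Dnajb1, wild-type in the top row and CAR-deficient in the bottom row, each panel with its own axis; bars are group means. In wild-type mice the EA arrays are separate from the EtOH arrays for all 5 genes, while in CAR-deficient mice they overlap.

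Male-biased liver genes had mostly negative interactions. Of 17 male-biased genes among the members, 15 had a negative interaction and 2 a positive one, with a median of -0.256 where all 3670 genes had 1731 negative, 1939 positive and a median of 0.0123, or 0.0263 without the array that stood apart. None passed the threshold, and 5 had an unadjusted p under 0.05, all negative, against 124 negative ones among all 3670 genes. The EA arrays were above all EtOH arrays in CAR-deficient mice for 7 of the 17 and below them for 1, whereas the wild-type groups overlapped for each of the 17. Over all genes the EA arrays stood apart upward in 246 and downward in 376 in CAR-deficient mice. In wild-type mice they did so upward in 389 and downward in 547. The CAR-deficient groups held fewer arrays per diet, so chance separates them more easily, and these counts are not directly comparable between genotypes. The list gave 15 negative interactions also without the array that stood apart, 12 without CAR-deficient EtOH 2 and 13 with all CAR-deficient values multiplied by the common factor of 0.572.

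Cyp4a12a, a male-predominant fatty acid hydroxylase, read 6.70, 7.39 and 6.33 on EtOH and 9.10, 9.65 and 9.63 with EA in CAR-deficient mice, under a control level of 11.33 to 11.44. Wild-type arrays stayed between 10.82 and 11.51. EA thus left CAR-deficient mice between ethanol and control, and the wild-type groups had neither an ethanol nor an EA separation. The interaction was -2.73 (-4.0 to -1.45, limma-adjusted p 0.0895).

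Slco1a1, an uptake transporter for bile acids and other organic anions, followed the same order. CAR-deficient arrays read 7.25, 7.06 and 6.76 on EtOH, 8.55, 9.86 and 9.51 with EA and 12.18 to 12.43 on the control diet, against 10.78 to 11.47 over both diets in wild-type mice. Its interaction was -2.22 (-3.49 to -0.96, limma-adjusted p 0.192). C8a, a chain of complement component 8, read 10.95, 11.16 and 10.20 and then 11.54, 11.73 and 11.73 in CAR-deficient mice, with an interaction of -0.86 (limma-adjusted p 0.113). In all 3 genes each CAR-deficient EA array exceeded each EtOH array, and the wild-type differences were -0.07, 0.06 and 0.03. Without the array that stood apart the interactions were -2.67, -2.34 and -0.95.

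The other members of the list were less uniform. Elovl3, a fatty acid elongase, had an interaction of -1.27 and Nudt7, a peroxisomal hydrolase of coenzyme A, one of -1.04, both with overlapping groups in CAR-deficient mice (limma-adjusted p 0.71 and 0.65), and without the array that stood apart Nudt7 had -0.57. Cyp2d9, a steroid hydroxylase chosen here after its values were seen, read 11.81, 12.08 and 11.71 on EtOH and 12.68, 12.68 and 12.76 with EA in CAR-deficient mice, with an interaction of -0.63 (limma-adjusted p 0.281). Its sign turned to 0.24 when each genotype was scaled to unit variance. Hsd3b5, a male-specific steroid dehydrogenase chosen in the same way, was 1 of the 2 with a positive interaction. It lay at 6.77, 6.51 and 6.54 on EtOH and 6.27, 6.39 and 6.31 with EA in CAR-deficient mice, so that EA did not come with a return toward the control level of 12.12 to 12.40. Its wild-type values spread from 7.31 to 10.54 over both diets, and its interaction of 0.24 took both signs when arrays were left out, with 0.15 without the array that stood apart.

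Female-biased genes leaned the other way. Of 8 members, 7 had a positive interaction, with a median of 0.667. Trim24, a transcriptional coregulator, was the member past the threshold in wild-type mice, where it rose by 0.81 (limma-adjusted p 0.017) from 7.62 to 8.34 on EtOH to 8.63 to 8.98 with EA. In CAR-deficient mice it read 9.81, 9.51 and 10.03 and then 9.55, 9.83 and 9.83, and the interaction was 0.86 (limma-adjusted p 0.221). Hao2, a peroxisomal hydroxy acid oxidase, had the largest interaction at 1.67 (limma-adjusted p 0.594), with 7.55, 10.25 and 11.33 on EtOH and 8.26, 7.12 and 8.18 with EA in CAR-deficient mice. The array that stood apart held the lowest of these EtOH values, and without it the Hao2 interaction was 2.75 (limma-adjusted p 0.0504). Trim24 and Hao2 thus reached a positive interaction from different genotypes, the former by a wild-type rise and the latter by a CAR-deficient difference of -1.86.

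CAR targets of xenobiotic metabolism had no common direction. Of 32 members, 20 had a positive and 12 a negative interaction, with a median of 0.187, and Cyp2c29 was the 1 that passed. None was called in wild-type mice, where 181 of all 3670 genes rose and 208 fell. The wild-type groups were separate upward in 1 and downward in 1 of the 32, against 389 and 547 of all 3670 genes. In CAR-deficient mice the EA arrays were separate downward in 7 (Cyp2c29, Cyp2b10, Cyp2c37, Cyp2c39, Abcc2, Slco1a4 and Gadd45b) and upward in 1, Cyp2c50, where over all 3670 genes this was so for 376 and 246. Apart from those past the threshold and of largest size, these names were chosen after the values were seen.

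Cyp2b10 was the largest of them. Its probe set 1425645_s_at read 10.15, 7.20 and 8.09 on EtOH and 6.70, 6.30 and 6.56 with EA in CAR-deficient mice, where the control diet gave 6.05 to 6.26. Wild-type mice read 10.02, 8.74, 8.60 and 10.51 on EtOH and 9.13, 8.83, 9.52 and 9.73 with EA, where the control diet gave 5.12 to 5.59. The EA arrays thus stood near the control level in CAR-deficient mice and within the EtOH range in wild-type mice. The interaction of 1.80 (0.28 to 3.31) did not pass (limma-adjusted p 0.477). Other member probe sets of Cyp2b10, 1422257_s_at and 1451787_at, had a larger p in the limma interaction and did not pass either. Their values are not described here. The highest CAR-deficient EtOH value of 1425645_s_at belonged to the array that stood apart, and without it the interaction was 0.96 (limma-adjusted p 0.694).

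Cyp2c50 and Cyp2c54, close relatives of Cyp2c29 that share sequence with it and with each other, ran opposite to it. Cyp2c50 read 9.81, 10.65 and 10.60 on EtOH and 10.89, 11.82 and 12.13 with EA in CAR-deficient mice, with an interaction of -1.17 (limma-adjusted p 0.468). Cyp2c54 had -1.23 (limma-adjusted p 0.556), with EtOH and EA arrays overlapping. Alas1, the first enzyme of haem synthesis, had 1.05 (limma-adjusted p 0.711) with overlapping groups in both genotypes. Within the Cyp2c family the EA differences of CAR-deficient mice therefore had both signs.

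Heat shock proteins outside the ER and ER chaperones had like medians in wild-type mice and unlike ones in CAR-deficient mice. The 21 heat shock genes were cytosolic ones together with the mitochondrial Hspd1 and Hspe1. Of the 21, 7 fell and 1, Fkbp5, rose in wild-type mice, where 208 of all 3670 genes fell and 181 rose. A negative interaction was found for 17 of the 21, with a median of -0.397 over the list. Their median difference was -0.299 in wild-type and 0.0561 in CAR-deficient mice, and 13 of the 21 had opposite signs. None passed the interaction, and 5 had an unadjusted p under 0.05, all negative, against 124 negative ones among all 3670 genes. Of 33 ER chaperone and unfolded protein response genes, 9 fell in wild-type mice, and 32 of 33 had the same sign in both genotypes. Their medians were -0.266 and -0.265, and the median interaction was -0.0393 with 21 negative. The difference between the lists was not tested. The 17 negative heat shock interactions stayed at 17 without the array that stood apart, without CAR-deficient EtOH 2 and with the common factor, while the negative ER interactions went from 21 to 29, 16 and 29 and their median to -0.243, 0.0216 and -0.151.

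Dnajb1, the cochaperone of HSP70, read 9.0, 9.0, 8.77 and 8.71 on EtOH and 8.12, 8.09, 8.34 and 8.11 with EA in wild-type mice, a fall of 0.71 (limma-adjusted p 0.0048). CAR-deficient mice read 9.05, 9.39 and 8.83 and then 8.82, 9.20 and 8.86. The wild-type groups were separate and the CAR-deficient ones overlapped, with an interaction of -0.58 (limma-adjusted p 0.563). Fkbp4, an immunophilin of HSP90 complexes, fell by 0.31 in wild-type mice (limma-adjusted p 0.016) and had a CAR-deficient difference of 0.14, with an interaction of -0.45 (limma-adjusted p 0.425). Chordc1, another HSP90 cochaperone, fell by 0.53 (limma-adjusted p 0.029) beside 0.05 in CAR-deficient mice, with -0.58 (limma-adjusted p 0.532). Hsph1, an HSP70 nucleotide exchange factor, had the largest interaction at -1.18 (limma-adjusted p 0.569), with 9.80, 10.54 and 8.78 on EtOH and 10.78, 10.38 and 9.44 with EA in CAR-deficient mice. Over all diets the spread of Hsph1 within a diet was larger in CAR-deficient than in wild-type mice, with residual SDs of 0.734 and 0.279.

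Among the ER genes named here the differences had the same sign in both genotypes over all arrays. Hspa5, the main ER chaperone, fell by 0.55 in wild-type mice with a CAR-deficient difference of -0.19. Manf, a secreted ER stress protein, fell by 0.87 with -0.52, and Syvn1, the ubiquitin ligase of ER-associated degradation, fell by 0.58 with -0.33. The interactions of Hspa5 and Syvn1 were -0.36 and -0.25, and -0.55 and -0.43 without the array that stood apart. Without it the Hspa5 interaction was thus as large as the wild-type fall, so a CAR-deficient fall of Hspa5 rested on that array. Eif2ak3, the PERK kinase, fell by 0.50 with -0.65, and here the EA arrays were below all EtOH arrays in both genotypes.

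**Figure D4:**
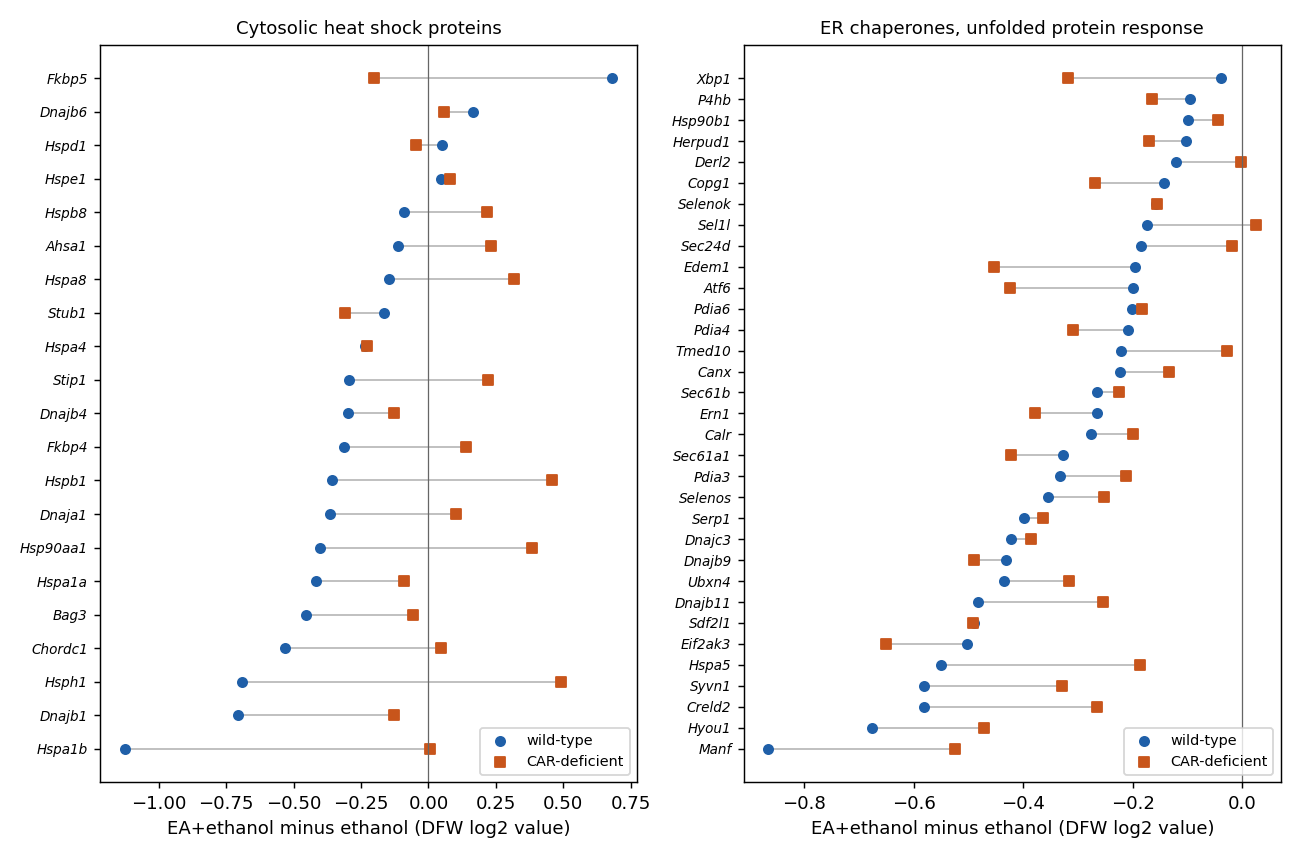
Difference between EtOH plus EA and EtOH in DFW log2 units for 21 heat shock genes (left) and 33 ER chaperone and unfolded protein response genes (right). Wild-type values are circles and CAR-deficient values squares, joined by a line for each gene. The left panel holds cytosolic genes and the mitochondrial Hspd1 and Hspe1. Wild-type circles lie mostly left of 0 in both panels, while the CAR-deficient squares lie right of 0 for 13 of 21 heat shock genes and left of 0 for 32 of 33 ER genes.

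Splicing factors and nuclear RNA-binding proteins counted 8 positive and 3 negative interactions with an unadjusted p under 0.05 among 43 members, where all 3670 genes counted 160 and 124. Over probe sets these shares were 4.12% and 4.35% of all and 4.57% and 3.44% of the members. None passed after adjustment, and the median interaction was 0.0749, or -0.00834 with the common factor. In wild-type mice 2 rose and 6 fell, against 181 and 208 of all 3670 genes. Srsf5, a splicing factor of the SR family, rose by 0.70 in wild-type mice (limma-adjusted p 0.0087), from 10.11, 10.60, 10.62 and 10.60 on EtOH to 11.13, 11.28, 11.05 and 11.26 with EA. CAR-deficient mice read 12.03, 11.88 and 11.93 and then 12.04, 11.80 and 12.07, and the interaction was 0.67 (limma-adjusted p 0.0754), and 0.71 without CAR-deficient EtOH 2 (limma-adjusted p 0.04). Sfpq, a paraspeckle protein, fell by 0.88 in wild-type mice (limma-adjusted p 9.1e-05) with a CAR-deficient difference of -0.37 and no overlap in either genotype. Hexim1, an inhibitor of the elongation factor P-TEFb, fell by 0.97 (limma-adjusted p 0.00078) with -0.45, again without overlap in either. Sfpq and Hexim1 thus kept 1 sign in both genotypes, with interactions of -0.50 and -0.53 (limma-adjusted p 0.317 and 0.477), whereas Srsf5 had a difference in wild-type mice beside 0.02 in CAR-deficient mice.

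All 14 clock repressors and outputs had a positive interaction, with a median of 0.32. Of the 14, 3 had an unadjusted p under 0.05, against 160 positive ones among all 3670 genes. In wild-type mice 5 rose, against 181 of 3670: Dbp by 1.22, Per3 by 1.05, Hlf by 0.86, Tef by 0.66 and Cry2 by 0.53. Their CAR-deficient differences were 0.74, 0.94, 0.60, 0.29 and 0.11. Per1, a core repressor, had the largest gap beside the deubiquitinase Usp2, which had 1.59 and 0.47. Per1 read 6.85, 8.30, 6.63 and 7.61 on EtOH and 7.29, 8.00, 7.99 and 8.24 with EA in wild-type mice, and 9.11, 8.16 and 8.35 and then 7.89, 7.92 and 8.06 in CAR-deficient mice. Its wild-type groups overlapped and its CAR-deficient EA arrays lay below all EtOH arrays, with an interaction of 1.12 (0.19 to 2.05, limma-adjusted p 0.467). Per3 had an interaction of 0.11 (0.19 without the array that stood apart) that turned negative when CAR-deficient EtOH 2 (-0.24) or CAR-deficient EA 1 (-0.08) was left out. The list gave 13 positive without the array that stood apart, 11 without CAR-deficient EtOH 2 and 14 with the common factor, with medians of 0.241, 0.142 and 0.482. The clock activators Arntl and Clock fell by 0.89 and 0.77 in wild-type mice, beside -0.38 and -0.32. The study's methods give 1 hour of the day for killing the mice, with no time for each mouse, and the part of sampling time in these values was not tested.

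Interferon-stimulated genes were above 0 with EA in all 9 members in CAR-deficient mice, and the EA arrays lay above all EtOH arrays in 7 of the 9, where they did so for 246 of all 3670 genes. In wild-type mice 3 of the 9 rose, against 181 of 3670. These were Tnfsf10 by 1.09, Rtp4 by 0.58 and Ifit1 by 0.55, where the CAR-deficient differences were 1.08, 0.81 and 0.90. Ifit1, an antiviral RNA-binding protein, read 6.64, 7.44 and 7.14 on EtOH and 7.86, 8.02 and 8.04 with EA in CAR-deficient mice. Of the 9, 8 had a negative interaction with a median of -0.344, and the common factor left 5 negative with a median of -0.0423. Leaving out the array that stood apart gave 6 negative, with a median of -0.129. The differences had the same sign in both genotypes for 7 of the 9. For Ifit1 the sign of the interaction depended on the scale, with -0.34 as deposited, -0.13 without that array and 0.0396 with the common factor.

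The lists of lipid metabolism were unlike in how far the signs of their interactions held. The 33 members of fatty acid oxidation, ketogenesis and PPAR alpha targets had 16 positive and 17 negative interactions. Without the array that stood apart 28 were positive, and without CAR-deficient EtOH 2 29 were negative, so the sign rested on single arrays. Of 18 phospholipid and choline genes 13 were positive, then 12 and 10 without these arrays and 11 with the common factor, with medians of 0.0935, 0.159, 0.0325 and 0.0658. Of 15 bile acid genes 10 were negative, then 9, 9 and 10, with medians of -0.1, -0.0656, -0.0688 and -0.0315. Outside lipid metabolism, the array that stood apart also turned the sign for acute phase proteins, with 20 of 22 positive in full and 6 without it, and for metallothioneins and glucocorticoid-responsive genes, whose median went from 0.209 to -0.335. Single members of lipid metabolism with an unadjusted p under 0.05 were Agpat2, an acyltransferase of triglyceride synthesis, with -0.64 (limma-adjusted p 0.288), and Pnpla2, the main triglyceride lipase, with 0.37 (limma-adjusted p 0.584). The Pnpla2 interaction was 0.16 without the array that stood apart. Pnpla2 rose by 0.41 in wild-type mice (limma-adjusted p 0.016) and gave 0.04 in CAR-deficient mice. Chka, the first kinase of phosphatidylcholine synthesis, fell by 1.06 in wild-type mice (limma-adjusted p 0.0084) beside -0.31, with an interaction of -0.75 (limma-adjusted p 0.594). Gys2, the liver glycogen synthase, rose by 0.69 (limma-adjusted p 0.0057) beside 0.33.

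**Figure D5:**
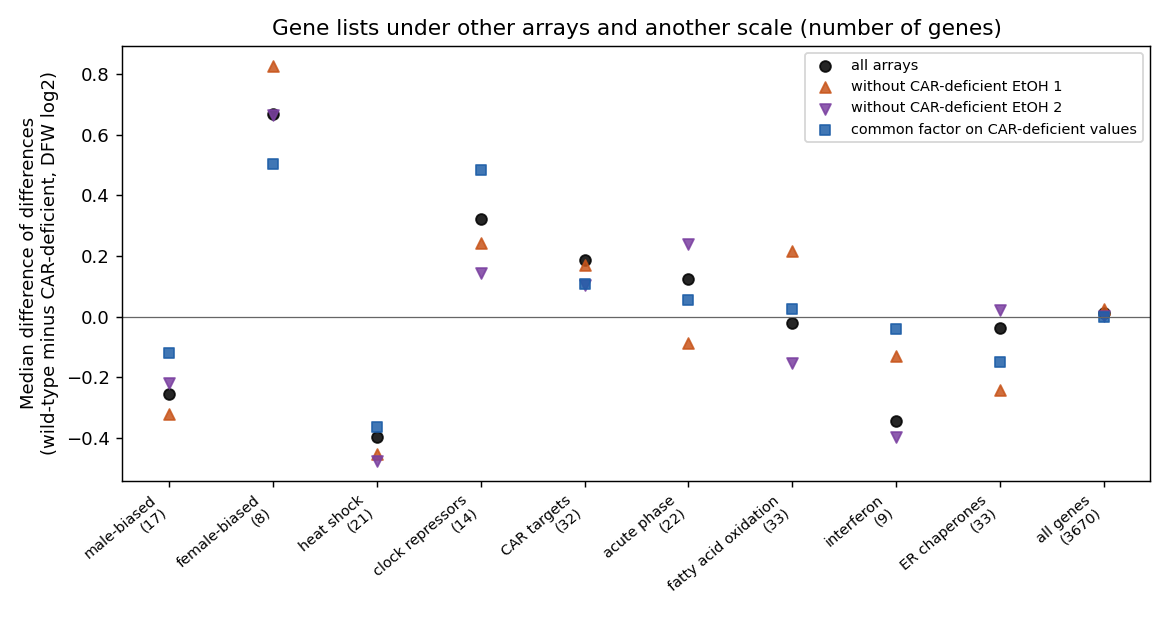
Median interaction of gene lists (wild-type minus CAR-deficient, DFW log2 units; number of genes in brackets) over all arrays, without CAR-deficient EtOH 1 or 2, and with the CAR-deficient values multiplied by 0.572. The male-biased and heat shock medians stay below 0 and the female-biased and clock repressor medians above 0 in all 4 versions, while the fatty acid oxidation and acute phase medians cross 0.

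The genes that the study had selected on the wild-type arrays for opposing effects of ethanol and the polyphenols were set side by side as well. They were chosen on these samples, so their wild-type direction is no independent evidence. Of 51 members raised by ethanol and lowered by a polyphenol, 17 fell with EA in wild-type mice and 44 had the same sign in CAR-deficient mice, with medians of -0.322 and -0.254. Of 37 members selected in the opposite direction, 5 rose in wild-type mice and 29 had the same sign, with medians of 0.212 and 0.125. Among 20 wild-type responders to EA of an earlier description of these arrays, 18 had the same sign. Over all 3670 genes, 2676 had the same sign in both genotypes, and in wild-type mice 208 fell and 181 rose. None of the genes of these lists passed the interaction.

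Cell type markers were compared in the same way. None of the 32 marker genes among the members passed the interaction. The 8 hepatocyte markers had a median interaction of 0.0502, 8 Kupffer cell markers -0.0573, 5 endothelial markers 0.0202 and 8 stellate cell markers -0.0998. These medians were -0.0279, 0.00879, 0.088 and 0.0844 without the array that stood apart, so the sign turned in 3 of the 4. Of the 5 endothelial markers 1 was called higher in wild-type mice, and 3 had EA arrays above all EtOH arrays in CAR-deficient mice. Over all 3670 genes this was so for 181 and 246. Over all marker genes on the array, the mean level of the hepatocyte markers ran from 12.7 to 13.02 on EtOH and from 12.62 to 12.68 with EA in wild-type mice, and from 14.64 to 15.29 and then 14.45 to 14.53 in CAR-deficient mice. The mean level of the hepatocyte markers was thus separate by diet in both genotypes, and lower with EA. That of the Kupffer cell markers ran from 8.304 to 8.413 and 8.313 to 8.353, and from 8.727 to 8.903 and 8.693 to 8.884. That of the endothelial markers was also separate by diet in wild-type mice, at 8.537 to 8.567 on EtOH and 8.609 to 8.676 with EA. It overlapped in CAR-deficient mice, at 8.937 to 9.065 and 9.027 to 9.086. That of the stellate cell markers overlapped in both, at 8.351 to 8.431 and 8.343 to 8.374, and at 8.6 to 8.85 and 8.754 to 8.799. The part of these levels in the results was not tested. No member was found for cholangiocytes, whose 5 markers on the array lay below the 75th percentile of all probe sets. Single members stood for neutrophils, lymphocytes and erythroid cells, with interactions of 0.0591, 0.0587 and -0.366, and of 0.0471, 0.11 and -0.217 without the array that stood apart.

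The same contrast for RSV, which shares the EtOH arrays, gave 0 limma calls, a smallest adjusted p of 0.0762 over the members, at Shld1, and 397 members (6.92%) with an unadjusted p under 0.05, against 7.06% of all probe sets. The values for EA and RSV stood side by side at -3.0 and -1.87 for Ptbp1 1458284_at, -2.73 and -1.77 for Cyp4a12a and 2.34 and 1.15 for Slc22a26. They were 0.99 and 0.20 for Cyp2c29, 0.37 and 0.37 for Shld1 and 0.39 and 0.19 for Zfp275. The CAR-deficient RSV arrays were far apart in several of these genes, with 9.84, 9.12 and 6.74 for Cyp4a12a and 8.06, 9.10 and 10.22 for Slc22a26, where the EA arrays ran from 9.10 to 9.65 and from 7.60 to 8.18.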

How the data were processed

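Liver RNA of 1 mouse per array was measured on Affymetrix Mouse Genome arrays, and the authors summarised the probes by DFW apart for the 16 wild-type and 12 CAR-deficient arrays and deposited the probe set values on a log2 scale. The title of each sample gave its diet, genotype and number. Of 45101 probe sets, 64 Affymetrix controls and 26 blank in CAR-deficient mice were set aside. Names come from the platform annotation: among the members 5095 probe sets name 1 gene, 197 name several and 443 name none, and only the first are called by a gene. A gene was represented by its member of highest mean level.

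The interaction was tested in limma 3.58.1 under R 4.3.3 (lmFit and eBayes) with 8 groups over all 28 arrays, 20 residual degrees of freedom and 1 spread for both genotypes, and each genotype was also fitted alone. P-values were adjusted over 45011 probe sets by Benjamini and Hochberg with a threshold of 0.05, are two-sided, and measure the spread between mice of a group. No further normalization was applied. The code was tested on simulated data, where 1 spread for both genotypes called unchanged probe sets more often when the genotypes differed in spread. The number of arrays limits the precision.

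Named are the genes with the largest interaction past the threshold in each direction, the 5 of smallest p where fewer passed, and in each list those past the threshold and up to 4 others of largest size. Other names were chosen after their values were seen. The members and the gene lists were chosen with earlier results of these data known, so no list was tested, and counts and medians describe it. Promoters come from RefSeq (GRCm38.p6).

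Arrays of the same number deviated together in wild-type mice with r of 0.222, 0.129 and -0.241 for numbers 1, 3 and 4 and in CAR-deficient mice with -0.0682, -0.192 and 0.0565, so the numbers were not taken as pairs. The alternatives concerned the scale of the genotypes, the spread, the arrays and probe sets entered, the normalization and moderation, a replicate block and the SD filter. List medians without 1 array or with a common factor were added after seeing the data.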

Additional observations from a re-analysis of the deposited data

Results flagged for a closer look

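The effect of EA on ethanol differed between genotypes by the limma interaction for 10 members, at -3.0 for Ptbp1 1458284_at, -1.70 for 1434110_x_at, -1.52 for 1426154_s_at, 0.59 for Txn2, 0.37 for Shld1, 0.99 for Cyp2c29, 0.36 for Rcbtb1, -0.23 for Tmem243, 2.34 for Slc22a26 and 0.39 for Zfp275. The values of the arrays stand in the text above.

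In groups of 4 arrays, 7 of 112 groups of named genes held an array whose gap to the nearest exceeded Dixon's critical value as a share of the range, which chance exceeds in about 1 of 20 groups. On EtOH in wild-type mice these were Srsf5 in array 1 (0.961 of the range, 10.11 beside 10.60 to 10.62), C8a in array 4 (0.872), Aars, an aminoacyl-tRNA synthetase, in array 3 (0.89), Nudt7 in array 5 (0.949) and Alas1 in array 3 (0.882). On EtOH plus EA they were Aars in array 4 (0.879) and Dnajb1 in array 3 (0.899).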

How the results depend on the processing

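The 6 positive and 4 negative interaction calls became 0 and 0 with unit variance in each genotype, 5 and 7 with the common factor, 1 and 0 with the spread apart, 4 and 2 without probe sets ending in _x_at, _s_at or _a_at, and 3 and 3 in a fit of the members alone. They were 4 and 3 over the 14 arrays or after quantile normalization, 5 and 4 without moderation, 6 and 4 with a trend of the variance, 7 and 5 above the median level and 7 and 4 with the SD filter on 2 diets. Leaving out 1 array gave 1 to 24 positive and 3 to 20 negative, and 19 to 359 calls over all 45011 probe sets. The extremes were wild-type EA 4 (1 positive) and CAR-deficient EtOH 2 (24 and 20), and without CAR-deficient EtOH 3 or EA 1 the counts were 7 and 6 and 9 and 6. Ptbp1 1458284_at, 1434110_x_at, 1426154_s_at and Txn2 kept their calls in 14 of 14 such fits, Shld1 in 13, Rcbtb1 in 5, Cyp2c29 and Tmem243 in 4, Zfp275 in 3 and Slc22a26 in 2. With the replicate block 0 positive and 1 negative call (Tmem243) remained, although the numbers were not taken as pairs.

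In wild-type mice EA raised 266 and lowered 333 members, 33 and 42 with only 2 diets in the fit, 255 and 227 after quantile normalization and 203 and 179 with the replicate block. Leaving out 1 array gave 109 to 309 and 103 to 363. The counts were 133 and 151 without EtOH 1, 193 and 213 without EtOH 4, 134 and 151 without EA 2, 109 and 103 without EA 3 and 144 and 147 without EA 4. In CAR-deficient mice the counts were 0 and 0 in each of these settings. Directions turned for Cyp2d9 (0.24) and Ifit1 (0.13) with unit variance, for Ifit1 (0.0396) with the common factor, for Hsd3b5 without wild-type EtOH 1 (-0.14) or EA 2 (-0.31; range up to 0.77), and for Per3 without CAR-deficient EA 1 (-0.08) or EtOH 2 (-0.24; range up to 0.37); the cause was not tested. With 3 CAR-deficient arrays per diet, each of them weighs on every interaction.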
